A study of Mus musculus with 17 samples.

Results

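Polr2m was followed in the cell-free RNA of mouse plasma, in mice kept in orbit without gravity, in mice kept in orbit on a rotating platform and in mice kept on the ground. The gene was taken from the row named Polr2m in the count table of each of the 17 libraries, 1 gene of the 49585 listed. It was chosen by the smallest p between the flight groups in counts scaled between libraries, and by its large share of the counts of each library. Its difference between those groups is therefore given as a description, with no test.

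All mice were wild type C57BL/6J, labelled as 13 weeks old, and each library was made from the plasma of 1 mouse. The AG group (Artificial-1G) was housed in flight under centrifugal force on the platform (n = 6), the MG group (Microgravity) in flight without it (n = 6), and the GC group (Ground control) on the ground (n = 5). The 3 groups thus shared strain, age and genotype, and only AG and MG shared the flight. The libraries were prepared with a small RNA kit, which the submitters chose because the RNA was degraded, so the values count fragments assigned to Polr2m and say nothing of intact messages. Counts per gene do not show whether these fragments cover the exons or come from a short stretch of them.

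Polr2m encodes GDOWN1, a protein that binds RNA polymerase II, the enzyme that transcribes messenger RNA. GDOWN1 competes with the general factor TFIIF for the polymerase and makes transcription depend on Mediator, the complex that relays signals from activators to the polymerase. Circulating red cells have lost the nucleus and no longer transcribe, whereas nucleated blood cells and tissues do, and any of these can release RNA into plasma. In bulk plasma, fewer cells releasing an RNA and less of that RNA per cell cannot be told apart.

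The gene lies on the minus strand of chromosome 9 in GRCm38 (mm10), at chr9:71478437-71485935 in GENCODE M21. Its longest transcript has 2200 bases in 4 exons and encodes 366 residues, with a 5′ UTR of 139 bases and a 3′ UTR of 963 bases. The gene length implied by the deposited counts and RPKM was 2424 bases in every library. That equals the length of all annotated exons of Polr2m together, so the reads were counted over exons. No other gene of GENCODE M21 or RefSeq overlaps the locus on either strand. The nearest partner is Myzap, 18411 bases upstream on the same strand, which can be transcribed through into Polr2m as the joint locus Gcom1. Gcom1 had 0 reads in all libraries and Myzap 8 reads in all, with at most 4 in a library, so the annotated upstream partner carried almost none of the signal.

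A stretch of exon 3 is shown because every annotated Polr2m transcript that holds it codes there, and it is part of the exonic length over which the reads were counted. It spans chr9:71481342-71481471 and is printed 5′ to 3′ on the minus strand, from the GENCODE M21 transcript Polr2m-201.
Polr2m exon 3 stretch: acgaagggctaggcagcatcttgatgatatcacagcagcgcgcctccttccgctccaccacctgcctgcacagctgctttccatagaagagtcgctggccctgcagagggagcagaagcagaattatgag

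The 4 annotated Polr2m transcripts were compared by BLAST with the 6112 small noncoding RNA transcripts of GENCODE M21, since a small RNA library can hold such RNAs in large amounts. The strongest match was to the microRNA gene Mir1954 on chromosome 2 and spanned 24 aligned positions, 23 of them identical and 1 a gap in the hairpin, inside exon 2 of Polr2m. The stretch is coding in Polr2m-201 and Polr2m-202 and lies in the UTR of the short transcript Polr2m-203. Both sequences are shown 5′ to 3′, with the aligned bases in capitals. The Polr2m stretch is chr9:71483244-71483273 on the minus strand and the hairpin is chr2:32652329-32652414 on the plus strand, and RefSeq gives the same hairpin sequence.
Polr2m exon 2 stretch: tttCCAGAACTGCAGAGTGAGACTCCTaag
Mir1954 hairpin: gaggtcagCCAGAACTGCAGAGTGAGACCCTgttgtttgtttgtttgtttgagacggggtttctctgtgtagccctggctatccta

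The next match, to Mir7654, spanned 21 positions with 20 identical. Mir1954 and Mir7654 were both listed at 0, in counts and in RPKM, in all 17 libraries. Against the 135651 other transcripts of the annotation no match had an E value of 0.001 or less at a word size of 16. Nuclear tRNA sequences were not part of the search. The longest run of identical bases shared with a transcript of Tmem38b, the most abundant gene of the libraries, was 15 bases, and with Lars2 it was 12 bases. With gaps and mismatches allowed at a word size of 7, the strongest alignment with Lars2 had 23 positions, 21 of them identical (E value 0.039), and the longest with Tmem38b had 48 positions, 37 of them identical (E value 0.21), both on the opposite strand. These E values come from a search of 18 transcripts and are not on the scale of those above.

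The promoter is shown as the remaining part of the locus. The 250 bases before the RefSeq start of Polr2m (GRCm38.p6, chr9:71485984-71486233, minus strand) were searched on both strands for the TATA box (TATAAA), for the GC box bound by Sp1 (GGGCGG) and for the core of the CCAAT box, and matches are in capitals.
Polr2m promoter: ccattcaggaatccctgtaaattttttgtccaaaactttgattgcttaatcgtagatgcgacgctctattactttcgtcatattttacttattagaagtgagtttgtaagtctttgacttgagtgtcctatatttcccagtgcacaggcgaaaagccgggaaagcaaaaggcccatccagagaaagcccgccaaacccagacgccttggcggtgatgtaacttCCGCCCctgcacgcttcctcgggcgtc

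In the 300-base window around this start the GC box was found 1 time, on the opposite strand, and 35.7% of all 32851 promoter windows hold it. The TATA box, held by 13.6% of the windows, and the CCAAT core, held by 37.4%, were not found there. The window of the other RefSeq start, chr9:71484909-71485208, holds the CCAAT core 2 times and neither of the others.

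Each library held 84657 to 277682 counts, of which Tmem38b, Rn18s-rs5 and Lars2 took most. By reads, Polr2m had rank 3 among all genes in every library but MG replicate 6, where it had rank 5 behind Gas5 and Snhg1. It took 199108 reads over all libraries, compared with 1624331 for Tmem38b, 376407 for Rn18s-rs5 and 88635 for Lars2. GC replicate 1 stood apart in composition, with 24.7% of its counts in Tmem38b against 54.2% to 64.6% in the other GC libraries.

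**Figure D1:**
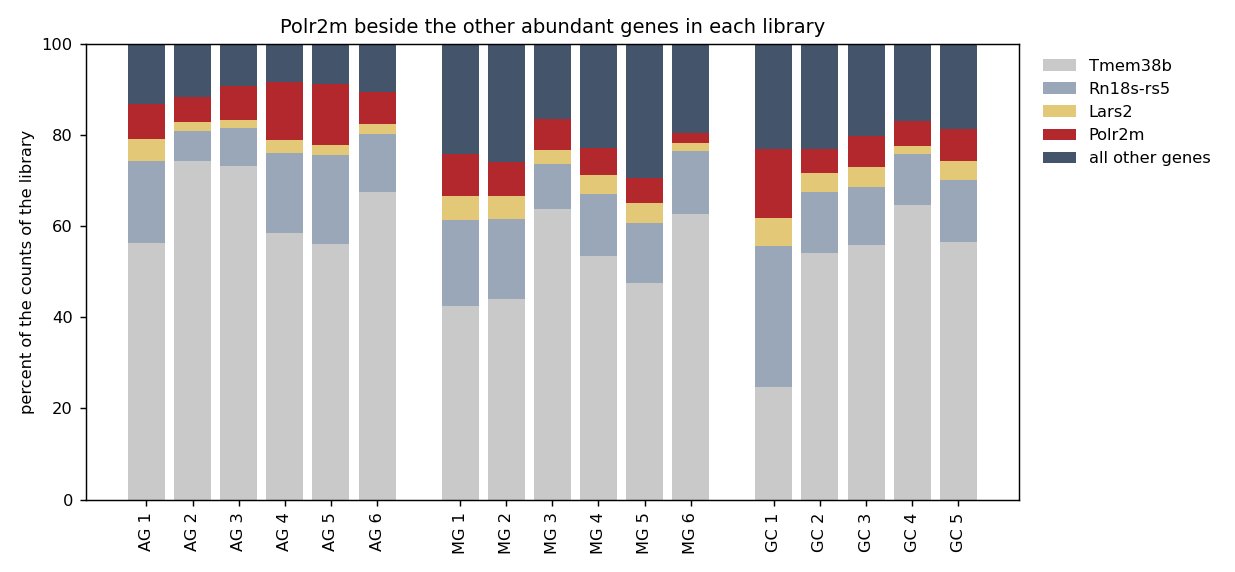
Percent of the counts of each library (y axis) held by Tmem38b, Rn18s-rs5, Lars2, Polr2m and all other genes, for AG, MG and GC libraries by replicate (x axis). All other genes together made up 10.3% ± 1.85 (SD) of the counts of an AG library, 23.1% ± 4.60 in MG and 20.3% ± 2.73 in GC.

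As counted, Polr2m had between 11674 and 24103 reads in the AG libraries, with a median of 14636. The MG libraries had 4661 to 10572 reads, with a median of 8123. The GC libraries had 12867, 9241, 8924, 10636 and 12922 reads. Every MG library was thus below every AG library. Among the 272 genes tested, 0.368% had such a separation in reads as counted, which is Polr2m alone. Reads as counted are not corrected for depth, and the median of total counts was 178072.5 in AG and 116459.5 in MG. GC overlapped both flight groups.

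As a share of all counts, Polr2m took 7.77%, 5.54%, 7.49%, 12.7%, 13.4% and 7.14% in AG replicates 1 to 6, a mean of 9.0% ± 3.22 (SD, n = 6). In MG the shares were 9.29%, 7.34%, 6.74%, 5.83%, 5.57% and 2.09%, a mean of 6.14% ± 2.39 (SD, n = 6). In GC they were 15.2%, 5.26%, 6.98%, 5.45% and 7.18%, a mean of 8.01% ± 4.11 (SD, n = 5). The 3 groups overlapped on this scale, and the means differed from each other by less than the SD of AG. AG replicates 4 and 5 were high in their group, MG replicate 6 was low and GC replicate 1 was above all other libraries. Without GC replicate 1 the GC mean was 6.22%. Counting error was small beside this spread. The lowest share, 2.09%, had a 95% Wilson interval of 2.03% to 2.15%, and the highest, 15.2%, one of 14.96% to 15.44%. These intervals cover counting error only.

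Outside Tmem38b, Lars2 and Rn18s-rs5, Polr2m was the most abundant gene in every library but MG replicate 6, and the groups moved apart. In AG it took 37.2%, 32.4%, 44.8%, 60.5%, 60.2% and 40.4% of them, a mean of 45.9% ± 11.9 (SD, n = 6). In MG it took 27.8%, 22%, 29.1%, 20.3%, 15.9% and 9.64%, a mean of 20.8% ± 7.31 (SD, n = 6). In GC it took 39.8%, 18.6%, 25.7%, 24.4% and 27.9%, a mean of 27.3% ± 7.79 (SD, n = 5). All 6 AG libraries were above all 6 MG libraries. Of the genes tested, 0.368% had MG wholly below AG on this scale, again Polr2m alone. This share and the contrast of MG with AG belong to the rule that chose the gene, so the separation is no independent support. The mean of GC lay between those of the flight groups. GC overlapped MG, and it overlapped AG only through GC replicate 1.

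Ratios to single abundant genes depended on the gene used. Lars2 encodes the mitochondrial leucyl-tRNA synthetase. Per 100 Lars2 reads there were 164 to 629 Polr2m reads in AG, 116 to 217 in MG and 126 to 304 in GC. Per 100 reads of Rn18s-rs5, which is named for 18S ribosomal RNA, there were 43.0 to 89.9 in AG, 15.02 to 67.8 in MG and 39.5 to 54.4 in GC. Per 100 reads of Tmem38b, the gene of a monovalent cation channel of internal membranes, the values were 7.44 to 23.8 in AG, 3.33 to 21.9 in MG and 8.44 to 61.5 in GC. MG and AG overlapped in all 3 ratios, least against Lars2 and most against Tmem38b.

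**Figure D2:**
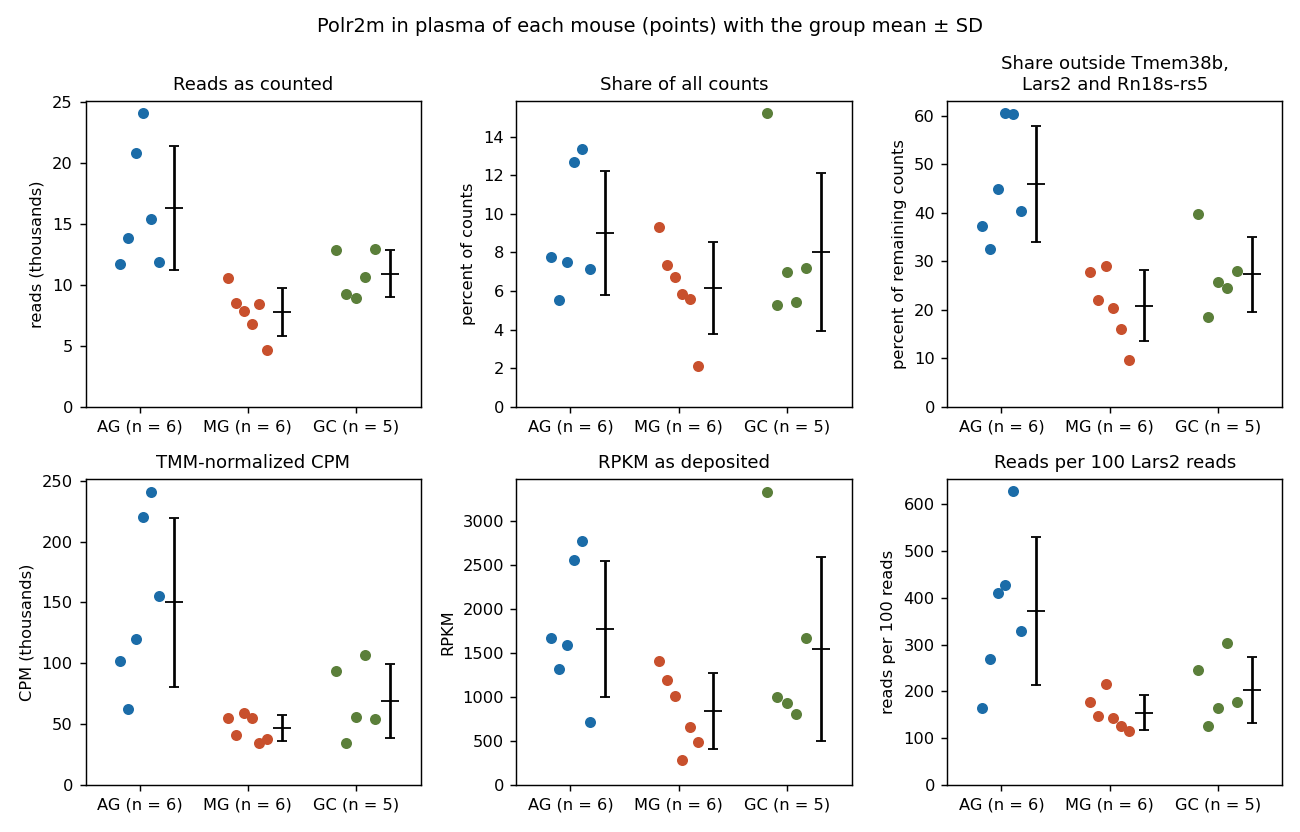
Polr2m in each library under 6 measures (y axes, units at each panel), by group on the x axis. Points are mice and the bars are the mean ± SD. MG lies wholly below AG for reads as counted, for the share outside Tmem38b, Lars2 and Rn18s-rs5 and for TMM-normalized CPM, but not for the share of all counts, RPKM or the ratio to Lars2.

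The levels were then scaled by TMM (trimmed mean of M values), which sets libraries to a common level by the bulk of the genes, and given as CPM (the counts of a gene relative to the scaled library size). The TMM-normalized level in AG ran from 62502 to 241197 CPM, with a median of 137507. In MG it ran from 34523 to 59443 CPM, with a median of 47884. In GC it was 93904, 34257, 55426, 106707 and 53941 CPM. Every MG library was below every AG library, and 1.84% of the genes tested had this order. On the log2 scale the SD within groups, pooled over the 3 groups, was 0.60.

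Polr2m was lower in MG than in AG by a log2 fold change of -1.67 ± 0.38 (SE), which is 0.314 times the AG level. This is the contrast that chose the gene. The median of all 272 genes in the same fit was 0.17. The gene with the next smallest p was Rnf10, a ubiquitin ligase gene, at -1.53 ± 0.38 (SE), so the values on both sides of the choice were close. By edgeR's quasi-likelihood test with Benjamini-Hochberg adjustment, 0 of the 272 genes passed an adjusted p of 0.05 between MG and AG, and 36 (13.2%) had an unadjusted p under 0.05. DESeq2 called 9 genes, edgeR's exact test 3, limma on log2(RPKM + 1) 0, and the quasi-likelihood test with total counts only 58.

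Against the ground, the flight groups differed in sign. Polr2m was at -0.55 ± 0.39 (SE) in MG relative to GC, where the median of all genes was -0.0034. It was at 1.12 ± 0.40 (SE) in AG relative to GC, a ratio of 2.18, where the median of all genes was -0.21. Of the 272 genes, 4 (1.47%) passed an adjusted p of 0.05 in AG relative to GC. These contrasts share the GC libraries with each other and the flight libraries with the choice of the gene, so no p is given for Polr2m in either.

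The contrast of both flight groups together against GC does not use the difference between MG and AG. Polr2m was 0.29 ± 0.35 (SE) higher on the log2 scale in flight, with a 95% interval of -0.39 to 0.97, and did not pass the test (edgeR quasi-likelihood, adjusted p = 0.899). In this contrast 2 of 272 genes (0.735%) passed, and 13 (4.78%) had an unadjusted p under 0.05. The share of all counts scales by total counts only. There flight was at -0.09 relative to GC (log2, exact two-sided permutation test over 6188 splits of 12 and 5 libraries, p = 0.801). On the share outside the 3 abundant genes it was at 0.16 (exact permutation p = 0.676). Flight as a whole was thus not separated from the ground in Polr2m, and the interval leaves room for a difference of nearly 1 on the log2 scale.

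The size of the difference between MG and AG rested on the scaling. With total counts and no TMM it was -0.49, and with the mapped reads implied by RPKM as library size it was -1.07. Between AG and GC these values were 0.13 and 0.20. The bulk of the genes moved with the scaling as well. With total counts alone the median of all genes was 1.27 between MG and AG and -1.14 between AG and GC. Relative to that median, Polr2m stayed lower in MG than in AG and higher in AG than in GC under TMM and under total counts. The TMM factors were 0.482 to 0.907 in AG and 0.577 to 1.92 in MG. In that fit the other abundant genes were also below 0 between MG and AG, Tmem38b at -1.07 ± 0.46, Rn18s-rs5 at -0.87 ± 0.41 and Lars2 at -0.45 ± 0.31 (SE). None of the 3 passed an adjusted p of 0.05.

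**Figure D3:**
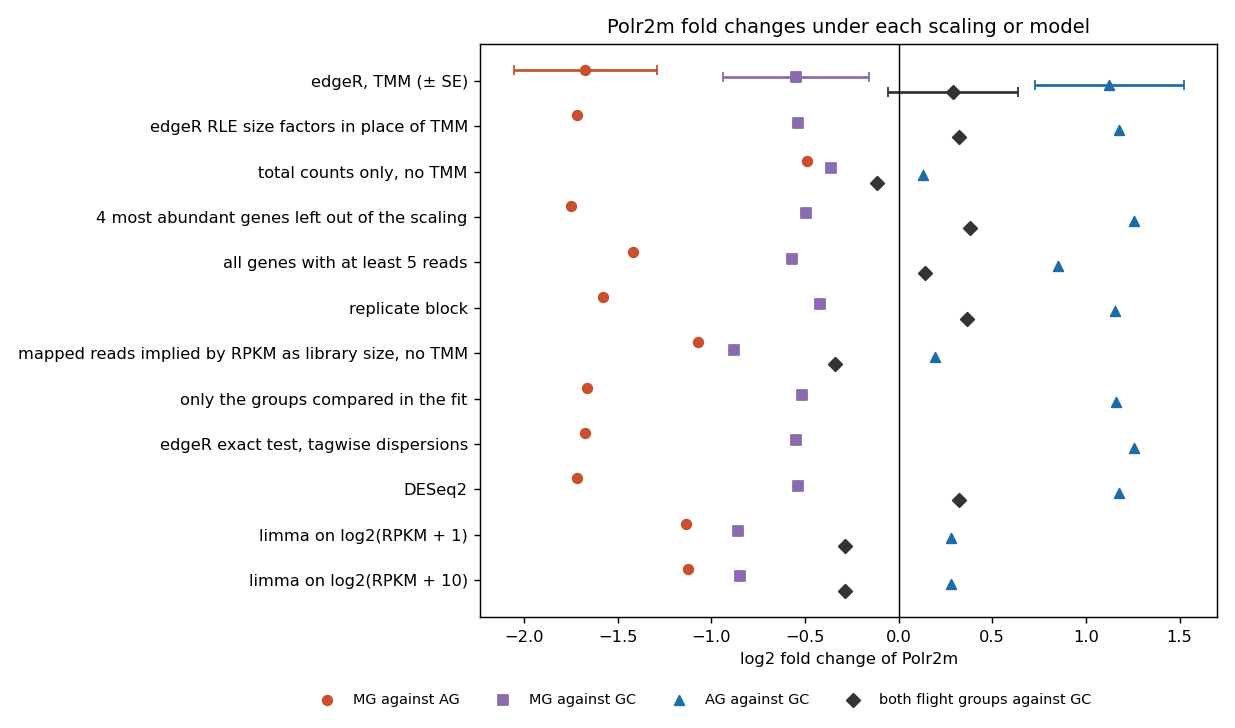
Log2 fold change of Polr2m (x axis) under each scaling or model (y axis), for MG against AG, MG against GC, AG against GC and both flight groups against GC. Bars on the first line are ± SE. MG against AG is negative in every line, from -1.75 to -0.49, whereas both flight groups against GC lies on either side of 0.

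The deposited RPKM, scaled by the authors to all mapped reads, separated the groups less. Polr2m was at 714 to 2773 RPKM in AG with a median of 1627, at 287 to 1409 in MG with a median of 835, and at 3326, 994, 935, 807 and 1668 in GC. MG and AG overlapped, and 0.0% of the genes tested had MG wholly below AG on this scale. With limma on log2(RPKM + 1), MG was at -1.14 relative to AG and AG at 0.28 relative to GC.

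The other genes of the transcription machinery were nearly absent from the same libraries. Lists of 12 core subunits of RNA polymerase II, 18 general factors, 30 Mediator subunits and 18 elongation factors held 438 reads in all over the 17 libraries. Of these 78 genes, 65 had any read, the median was 4 reads per gene over all libraries, and no gene had more than 6 reads in a library. Polr2m alone had 455 times the reads of all of them together. None was kept by the filter on low counts, so none was tested in any contrast.

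The core subunits, which form the polymerase that GDOWN1 binds, had 61 reads over 9 of 12 genes. Polr2a, the gene of the catalytic subunit, led them with 24 reads. Per length, its median over the libraries was 0.041 RPKM, compared with 1190 RPKM for Polr2m. The general factors, which place the polymerase at promoters, had 84 reads over 14 of 18 genes, led by the kinase gene Cdk7 with 23. The Mediator list had 162 reads over 25 of 30 genes, with 25 for Med24 and 24 for Med13. The elongation list had 131 reads over 17 of 18 genes, with 21 for Supt4a, a subunit of the elongation factor DSIF. Polr2m thus stood alone in level among these genes, but a large share of the counts was part of its choice.

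**Figure D4:**
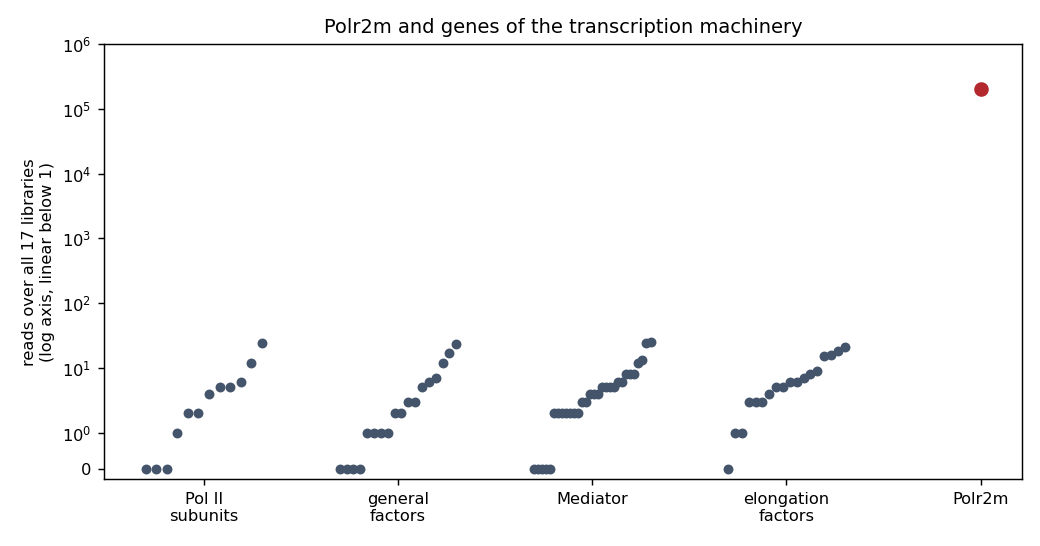
Reads over all 17 libraries (y axis, log scale, linear below 1) for each gene of 4 transcription lists and for Polr2m (x axis). Each point is a gene, and the highest of the 78 listed genes has 25 reads, against 199108 for Polr2m.

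The genes whose pattern over the libraries was most like that of Polr2m were found by Pearson's r of log2 TMM-normalized CPM over 17 libraries. The 5 highest among 271 genes were Pabpc1 (0.88), Ube2o (0.87), Dcaf12 (0.83), Mkrn1 (0.82) and Ucp2 (0.78), while the median of all genes was -0.24. The libraries share their scaling factors and the groups, so r is given as a description. Pabpc1 encodes the cytoplasmic poly(A)-binding protein, Ube2o a ubiquitin-conjugating enzyme that acts during red cell maturation, and Dcaf12 a substrate receptor of a cullin ubiquitin ligase. Mkrn1 encodes a ubiquitin ligase of the makorin family and Ucp2 a carrier of the inner mitochondrial membrane. After the group means were removed, r was 0.75 for Pabpc1, 0.67 for Ube2o, 0.68 for Dcaf12, 0.53 for Mkrn1 and 0.70 for Ucp2. The median over all genes was then -0.13, and Mkrn1 had rank 19. The genes were chosen on the same libraries, so these values are no independent support.

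These genes were far lower in reads than Polr2m. Pabpc1 had 56 to 101 reads in the AG libraries, 22 to 66 in MG and 59 to 79 in GC. Dcaf12 had 7 to 18 reads in AG and 1 to 11 in MG. In TMM-normalized CPM the median of Pabpc1 was 839 in AG, 281 in MG and 366 in GC, the same order of groups as for Polr2m. Pabpc1 was at -1.20 ± 0.40 (SE, log2) in MG relative to AG and Ube2o at -1.43 ± 0.40. Rn18s-rs5 had rank 8 in likeness with r of 0.76, Lars2 rank 22 with 0.64 and Tmem38b rank 29 with 0.56. On the log2 share of counts Tmem38b was at -0.46, so its likeness to Polr2m turned sign with the scale.

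**Figure D5:**
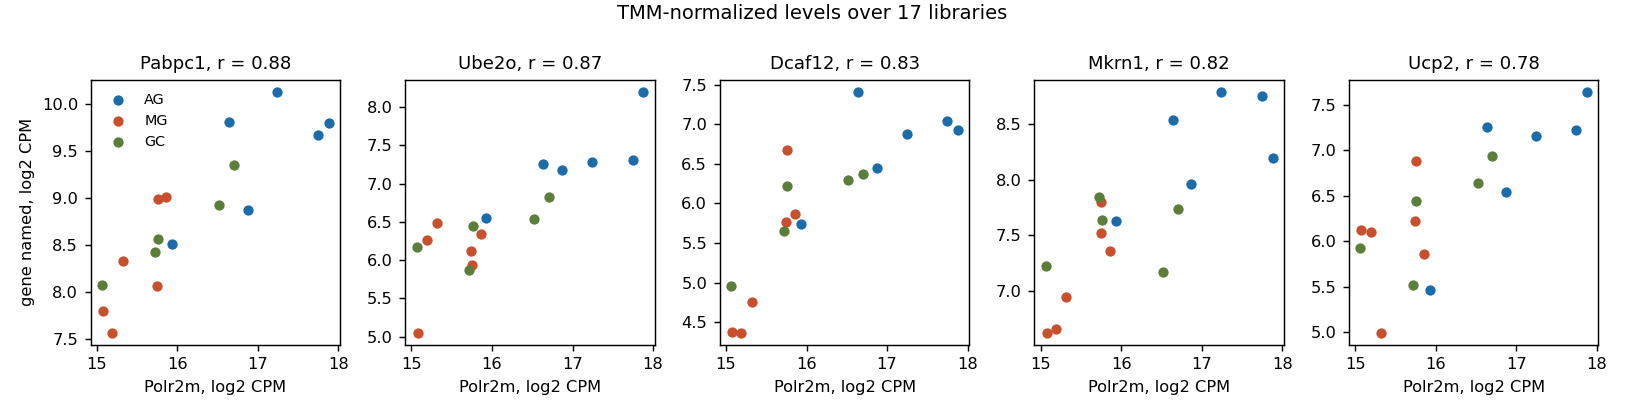
Log2 TMM-normalized CPM of the 5 genes most like Polr2m (y axes) against that of Polr2m (x axis), 1 point per library, coloured by group. MG and AG overlap in the level of the named gene in every panel but that of Ube2o, and r runs from 0.78 to 0.88.

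Markers of the cells that can release RNA into plasma were set beside these values. The 11 red cell genes, all with reads, took 5.23% to 14.5% of the counts outside the 4 most abundant genes in AG, with a median of 10.3%. They took 0.797% to 8.69% in MG with a median of 6.15%, and 2.49% to 13.2% in GC with a median of 4.87%. As a share of all counts the order of the flight groups turned, with medians of 0.928% in AG, 1.28% in MG and 0.950% in GC, and the groups overlapped. Library by library the measures did not always go together. As shares of all counts, MG replicate 6 was lowest in red cell genes (0.156%) and in Polr2m (2.09%), and GC replicate 1 was highest in both (3.03% and 15.2%). AG replicates 4 and 5 had the next highest Polr2m shares, with red cell shares of 0.962% and 0.944%. MG replicate 4 had a red cell share of 1.99%, exceeded only by GC replicate 1, with a Polr2m share of 5.83%. The 6 red cell genes kept by the filter had a median of -1.03 on the log2 scale in MG relative to AG, and 0 of the 6 passed an adjusted p of 0.05, beside 0 of all 272 genes. Without MG replicate 6, Polr2m was at -1.61 in MG relative to AG. The part of red cell RNA in the difference of Polr2m was not tested.

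The 9 platelet genes had 6742 reads in all, and 7 of them were kept by the filter. They took 0.177% to 2.10% of the counts outside the 4 genes in AG, 0.298% to 2.15% in MG and 0.389% to 2.50% in GC. As a share of all counts their medians were 0.129% in AG, 0.344% in MG and 0.453% in GC. The remaining marker lists held fewer reads. The 10 leukocyte genes had 422 reads, with 2 of them at 0, and took 0.0763% to 0.147% of those counts in AG, 0.0526% to 0.135% in MG and 0.0426% to 0.139% in GC. The 8 liver genes had 898 reads, 0.0104% to 1.18% of those counts in AG, 0.0199% to 0.954% in MG and 0.0349% to 0.0616% in GC. Their medians were 0.0554% in AG, 0.129% in MG and 0.0470% in GC. A single library held 116 of the 131 Alb reads in AG, and another 294 of the 374 in MG. The 6 skeletal muscle genes had 110 reads, at most 0.142% in AG, 0.0232% in MG and 0.0513% in GC. Of the members kept by the filter, none passed an adjusted p of 0.05 between MG and AG, beside 0 of all 272 genes.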

How the data were processed

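RNA was measured in the plasma of 17 mice. The authors mapped paired reads from a small RNA kit to mm10 in CLC Genomics Workbench and deposited, for 49585 genes per library, counts without normalization, RPKM scaled to gene length and all mapped reads, and TPM, which was not used here. Strand setting, trimming and the handling of reads with several matches are not given in the sources used here. In 579 genes the count column held 0 beside a positive RPKM. Polr2m was not among them.

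Counts were analysed with edgeR 4.0.16 in R 4.3.3 (filterByExpr, 272 genes kept, TMM, quasi-likelihood F-test, all 17 libraries in 1 fit, Benjamini-Hochberg adjustment over 272 genes). The biological coefficient of variation was 0.574. Limma 3.58.1 and DESeq2 1.42.0 served as alternatives, scipy 1.17.1 for exact permutation tests and BLAST 2.17.0 for sequences (word size 11, E value up to 10, for small RNAs). In data simulated for both flight groups against GC (265 genes, dispersion 0.1), 100% of changes of 2 on the log2 scale were recovered; at dispersion 0.4 (234 genes) it was 85.5%.

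Polr2m and all gene lists were chosen with earlier results of these data known. Named genes were Polr2m, the 3 genes of the rule, Myzap and Gcom1, the 5 genes most like Polr2m and the transcription genes with most reads; Rnf10, Mir1954 and Mir7654 were named after their values were seen. No 2 libraries of a group agreed within sampling noise (chi-square per degree of freedom of at least 5.46). Replicate numbers are shared by the labels of the groups, but of 16 pairs with the same number only 7 correlated above 0.1 (-0.47 to 0.59), so they were not treated as pairs.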

Additional observations from a re-analysis of the deposited data

Results flagged for a closer look

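Of 39 sets of values examined, each 1 measure in 1 group, 3 held a value far from the others, where chance gives about 1.95 (1 in 20). The measures come from the same libraries and are not independent. GC replicate 1 had a Polr2m share of all counts of 15.2%, compared with 5.26% to 7.18% in the other GC libraries. The same library had 61.5 Polr2m reads per 100 Tmem38b reads, compared with 8.44 to 12.7. Ube2o, the second gene by likeness to Polr2m, was at 281 TMM-normalized CPM in AG replicate 5, compared with 81.3 to 146 in the other AG libraries.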

How the results depend on the processing

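Between MG and AG, Polr2m was lower under all 11 alternative scalings and models, but its size moved to -0.49 with total counts only and -1.07 with mapped reads as library size, the latter chosen after seeing the data. Between AG and GC it was, in the same order, 0.13 and 0.20 and, on log2(RPKM + 1) and log2(RPKM + 10), 0.28 and 0.28. For both flight groups against GC the sign turned under total counts (-0.12), mapped reads (-0.34), log2(RPKM + 1) (-0.29) and log2(RPKM + 10) (-0.28), with adjusted p of 0.626 to 0.932 over its 9 alternatives. The flight difference in share turned to 0.16 outside the 3 abundant genes. The cause of these moves was not tested.

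Leaving out 1 library gave -1.83 to -1.48 for MG against AG, -0.72 to -0.34 for MG against GC, 0.94 to 1.32 for AG against GC and 0.12 to 0.49 for flight against GC (adjusted p 0.755 to 0.997). The number of genes passing also moved, in fits of 260 to 309 genes. It ran from 0 to 10 between MG and AG, 0 to 6 between AG and GC and 0 to 3 for flight against GC. The flight difference in share ran from -0.21 to 0.17 and was positive without GC replicate 1 (0.17) or MG replicate 6 (0.07). Mean shares ran from 8.13% to 9.69% in AG, 5.51% to 6.96% in MG and 6.22% to 8.70% in GC, and outside the 3 genes from 43.0% to 48.6%, 19.1% to 23.0% and 24.2% to 29.5%.

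With the replicate number as a block, values were -1.58, -0.42, 1.16 and, for flight against GC, 0.37 (adjusted p = 0.924). The call of flight against GC did not change. Between MG and AG, the contrast that chose Polr2m and in which it is not tested, the block gave 3 genes of 272 at an adjusted p of 0.05 in place of 0. As a share of summed RPKM, Polr2m took 1.06% in AG, 0.462% in MG and 0.707% in GC, and 1.19%, 0.498% and 0.775% outside the 3 genes. Of the 5 genes most like Polr2m, 3 remained by Spearman's rho, 2 by deviations from group means and 3 on log2 shares. From the red cell list, Slc4a1 entered by Spearman's rho and Hbb-bt and Hba-a2 on log2 shares. No gene of that list entered by deviations from group means. Depth did not limit Polr2m, but none of the 78 transcription genes had enough reads to be tested.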
